A study of Homo sapiens with 4 samples.

Results

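The contractile actin and SRF target genes compared here were ACTA2, TAGLN, CNN1, MYL9, TPM1, TPM2, CALD1, ACTN1 and TNNT1. They were taken by gene name from a table of 56753 loci in 4 RNA-seq libraries of 786-O, an established human cell line derived from a clear cell carcinoma of the kidney. All 9 names were found, 8 of them at a locus of their own, while ACTN1 shared its locus and its value with the processed pseudogene HMGN1P3. One group of 2 libraries came from cells stably transduced with PRDM16 lentivirus, and the other group of 2 came from cells stably transduced with a control vector. Both groups were the same line under the same standard adherent culture, and nothing in the labels tells whether replicates are separate cultures, or whether transduced cells were pooled or cloned. The p-values therefore rest on the spread between these 4 libraries alone, and that spread may be technical. The question was how PRDM16, a zinc finger protein known for its part in brown fat, affects the transcriptome of these cells.

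Smooth muscle contraction rests on actin filaments, myosin and a set of proteins that bind and regulate them, and many of their genes carry binding sites for SRF (serum response factor). SRF acts with the actin-sensing cofactors MRTFA and MRTFB or with myocardin (MYOCD) on cytoskeletal genes, and with ternary complex factors of the ELK family on immediate early genes. In carcinoma cells the same genes are often read as signs of a mesenchymal or contractile state, and several of them are also used by the cytoskeleton of most cell types.

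The best known SRF site is the CArG box, in which CC and GG flank a core of 6 bases that are all A or T. Promoter sequences were available from RefSeq (GRCh38.p14) for 15 start sites of 7 of the genes: ACTA2, CNN1, TPM1, TPM2, CALD1, ACTN1 and TNNT1. Each window held 300 bases, 250 before and 50 after the start, and positions are counted from the start site with upstream bases negative. The pattern reads the same on both strands. A full CArG box stood in 1 of the 15 windows, a start site of ACTN1, and in 1.29% of the 35116 human promoter windows of that length. Allowing 1 G or C in the core, the pattern stood in 3 of the 15 windows, those of ACTN1, ACTA2 and CALD1, and in 8.13% of all windows. The ACTA2 and ACTN1 windows are shown because they hold the matches of a gene that was lower in both PRDM16 libraries and of a gene whose groups overlapped. Capitals mark the CArG matches, and both windows lie on the minus strand.
ACTA2, chr10:88952724-88953023: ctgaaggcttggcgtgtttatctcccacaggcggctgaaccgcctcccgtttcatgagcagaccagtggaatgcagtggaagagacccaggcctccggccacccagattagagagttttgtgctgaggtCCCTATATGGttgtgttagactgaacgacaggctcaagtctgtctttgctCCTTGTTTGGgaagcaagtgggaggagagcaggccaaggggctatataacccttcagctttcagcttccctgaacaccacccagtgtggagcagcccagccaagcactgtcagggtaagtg
ACTN1, chr14:68977517-68977816: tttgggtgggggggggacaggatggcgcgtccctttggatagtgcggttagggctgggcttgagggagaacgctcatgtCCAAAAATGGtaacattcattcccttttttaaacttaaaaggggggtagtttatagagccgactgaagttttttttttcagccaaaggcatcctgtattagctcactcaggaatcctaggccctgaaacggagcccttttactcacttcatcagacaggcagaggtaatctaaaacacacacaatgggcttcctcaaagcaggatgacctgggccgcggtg

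In the ACTA2 window the matches CCCTATATGG and CCTTGTTTGG began at -121 and -71, and each has 1 G or C in its core. The ACTN1 window holds CCAAAAATGG from -171, a full CArG box. The CALD1 match, CCTAAAGAGG from -26, lies at 1 of its 4 start sites, in the window chr7:134711249-134711548. That window is upstream of the CALD1 gene coordinates given below, which come from another annotation. ACTA2 and ACTN1 have 2 and 4 start sites in the same table. Other elements were searched on both strands in the same windows. The letters TATAAA stood in 3 of the 15 windows, those of TNNT1, CALD1 and ACTN1, and in 11.5% of all windows, with the TNNT1 match at -29. GGAATG, a motif of TEAD factors, stood in 4 of the 15, in ACTA2, ACTN1 and at 2 starts of CALD1, and in 14% of all windows. None of these matches overlapped a CArG match. The table gives 1 value per locus, so the start site in use in these cells is not resolved, and the matches are a description of letters only.

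The values were read as FPKM, fragments scaled to transcript length and to the size of the library, so levels of different genes can be compared. The overexpressed gene matched the labels, as PRDM16 had 1226 and 1146 FPKM in the PRDM16 libraries, against 0.0157 and 0.234 FPKM in the control vector libraries (log2 change 10.05, SE 0.13, limma adjusted p = 0.000317). The libraries held 23700 and 23507 loci above 0 in the PRDM16 group and 23138 and 24490 in the control vector group. The control vector libraries differed from each other more than the PRDM16 libraries did, with a median absolute log2 difference between replicates of 0.098 in the PRDM16 group and 0.190 in the control vector group. Markers of the kidney carcinoma line were present, with the renal factor PAX8 at 190.3 and 169 FPKM in PRDM16 libraries, against 202 and 208 FPKM in control vector libraries. The other renal carcinoma markers, PAX2, KRT8, KRT18, VIM and CDH16, also had means of at least 1 FPKM over the 4 libraries. The epithelial keratin KRT18, in a locus with AC107016.1, was 101 and 103 FPKM in PRDM16 libraries, against 81.6 and 74.5 FPKM in control vector libraries, and the mesenchymal filament gene VIM was 3408 and 3330 FPKM against 3455 and 3437 FPKM. The kidney cadherin CDH16 was 0.997 and 0.926 FPKM in PRDM16 libraries, against 1.58 and 1.86 FPKM in control vector libraries, 1.79-fold lower in the mean. KRT18 and CDH16 did not overlap between the groups, in opposite directions, and neither passed (limma adjusted p = 0.689 for each). Of the 6 renal carcinoma markers, both PRDM16 libraries lay above for 2, KRT8 and KRT18, and below for 3, PAX8, VIM and CDH16. Among all loci with a mean of at least 1 FPKM, 21.1% lay above and 20.3% below.

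Levels of the 9 genes spanned over 3 orders of magnitude, and the genes that most cell types use for their cytoskeleton stood far above the classic smooth muscle markers. TPM1 (tropomyosin alpha) led with a mean of 1053 FPKM over the 4 libraries, above which stood only 27 of 13246 loci with a mean of at least 1 FPKM. ACTN1 (alpha-actinin), CALD1 (caldesmon) and MYL9 (myosin regulatory light chain) followed at 407, 210.4 and 107 FPKM. TNNT1, which encodes the slow skeletal muscle troponin T, stood at 47.0 FPKM, higher than 79.9% of tested loci. ACTA2 (smooth muscle alpha-actin) and TPM2 (tropomyosin beta) were near each other, at 8.75 and 8.54 FPKM, and their order differed between libraries. TAGLN (transgelin) stood at 1.73 FPKM and CNN1 (calponin 1) at 0.444 FPKM. Apart from ACTA2 and TPM2, neighbours in this order kept their places in all 4 libraries, and their ranges over the libraries did not overlap.

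**Figure D1:**
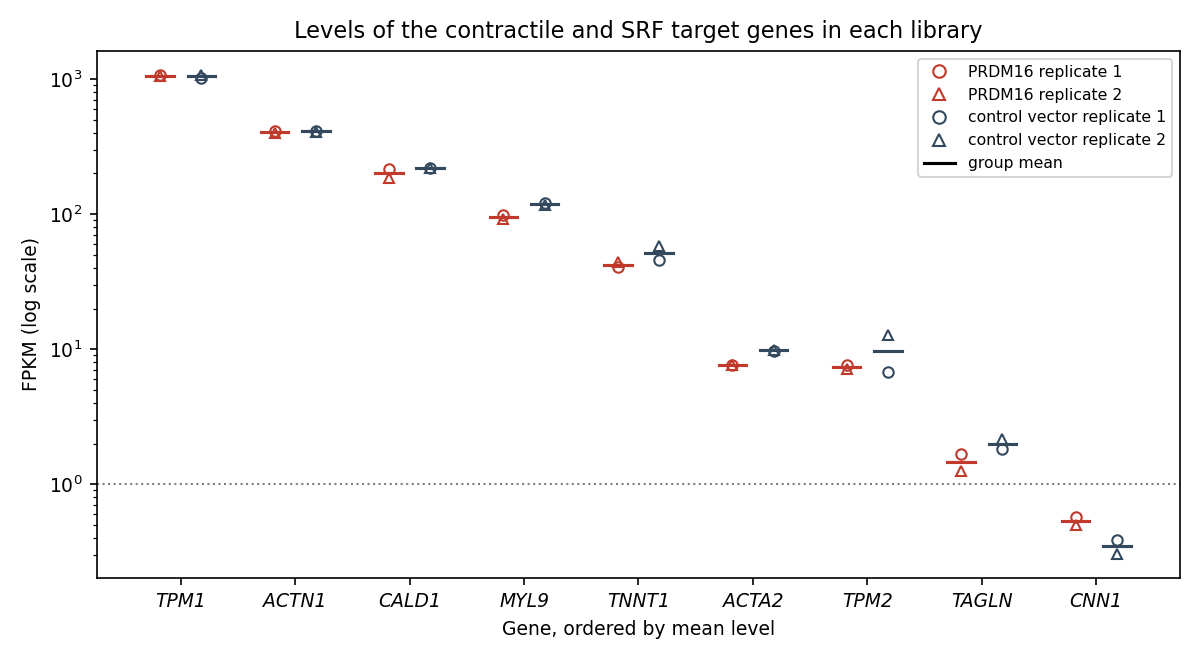
FPKM of each of the 9 genes (log axis) in the 2 PRDM16 libraries (red, left of each pair) and the 2 control vector libraries (dark blue, right), with lines at the group means and a dotted line at 1 FPKM. The order from TPM1 to CNN1 spans means of 1053 to 0.444 FPKM, and the group differences are small beside the differences between genes.

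A fixed list of smooth muscle markers was low in these libraries. It did not include SMTN, in a locus with a clone-named gene, or MYLK, which were counted in other lists. Those had means of 47.8 and 32.3 FPKM over the 4 libraries. Of 6 smooth muscle markers outside the 9 genes (MYH11, DES, MYOCD, LMOD1, ACTG2 and SYNPO2), none reached a mean of 1 FPKM, and MYH11 and MYOCD were listed at 0 in all 4 libraries. Their summed level was 0.314 and 0.378 FPKM in PRDM16 libraries, against 0.545 and 0.548 FPKM in control vector libraries. SYNPO2 made up most of it, at 0.228 and 0.293 FPKM against 0.391 and 0.468 FPKM, and the groups overlapped for DES, LMOD1 and ACTG2. Of 6 skeletal muscle markers (MYOD1, MYOG, MYH2, MYH7, CKM and ACTA1), none reached 1 FPKM either, with sums of 0.196 and 0.127 FPKM against 0.208 and 0.190 FPKM. Fibroblast and pericyte markers summed to 48.0 and 48.0 FPKM in PRDM16 libraries, against 42.3 and 41.6 FPKM in control vector libraries, with DCN listed at 0 and 4 of 8 under 1 FPKM. Most of that sum came from a locus that names PDGFRA together with FIP1L1, at 38.3 and 39.6 FPKM against 32.4 and 31.1 FPKM. The pericyte marker RGS5 was 5.19 and 3.47 FPKM against 5.15 and 5.84 FPKM, while LUM and COL1A1 had means of 2.23 and 1.87 FPKM in PRDM16 and 2.11 and 1.69 FPKM in the control vector. Leukocyte and endothelial markers were under 1 FPKM in 6 of 7 cases, and CD68, the exception, was measured only in a locus with EIF4A1, at 473 and 477 FPKM for the whole list in PRDM16 libraries, against 448 and 362 FPKM in control vector libraries, with CD3E listed at 0.

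No gene of the set passed the test of PRDM16 against control vector. Loci with a mean of at least 1 FPKM were tested with limma on log2(FPKM + 1), a scale that understates the change of low genes, and p was adjusted over all 13246 tested loci by Benjamini-Hochberg with a threshold of 0.05. CNN1 did not reach the filter. Of the 8 genes tested, 0 were called, where 0.0226% of all tested loci were called in either direction, 0.0151% as higher and 0.00755% as lower with PRDM16. An unadjusted limma p under 0.05 was reached by 2 of the 8, ACTA2 and MYL9, beside 6.12% of all tested loci. With the replicate number as a block 0 of the 8 reached it (unadjusted limma p of 0.0699 for ACTA2 and 0.0755 for MYL9). Means were lower with PRDM16 for 7 of the 8 (49.3% of all tested loci) and higher for 1 (50.7% of all tested loci). Both PRDM16 libraries lay below both control vector libraries for 5 of the 8 (20.3% of all tested loci). None of the 8 lay above (21.1% of all tested loci). The median log2 change of the 8 was -0.28, beside 0.00399 over all tested loci. In bulk RNA, fewer cells that express a gene and less of its RNA per cell cannot be told apart.

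Among the actin filament and motor genes, ACTA2 showed the closest replicates. It lies on chromosome 10 at 88935074 to 88991339, minus strand. ACTA2 had 7.70 and 7.61 FPKM in PRDM16 libraries, against 9.77 and 9.92 FPKM in control vector libraries. The groups did not overlap, and the gap between them, 2.07 FPKM, was many times the differences within groups, 0.088 FPKM in PRDM16 and 0.155 FPKM in the control vector. The means were 7.65 ± 0.063 and 9.84 ± 0.109 FPKM (SD, n = 2 each), 1.29-fold lower with PRDM16. The log2 change was -0.33 (SE 0.09, 95% interval -0.57 to -0.08), with an unadjusted limma p of 0.0192 and an adjusted p of 0.689. By unadjusted p ACTA2 stood at place 281 of the 13246 loci. With any 1 library left out its change stayed between -0.34 and -0.32.

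The ACTA2 locus overlaps 3 genes annotated on the opposite strand, and whether the libraries kept strand is not given in the sources used here, so reads in the overlaps cannot be assigned with certainty. STAMBPL1, which overlaps by 40080 bases, was 11.03 and 11.3 FPKM in PRDM16 libraries, against 9.43 and 8.06 FPKM in control vector libraries. FAS, which overlaps by 758 bases, was 18.5 and 19.3 FPKM against 17.6 and 15.7 FPKM. Both were higher with PRDM16, the other way from ACTA2. The antisense gene ACTA2-AS1 was at most 0.164 FPKM in any library.

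MYL9 encodes the myosin regulatory light chain whose phosphorylation switches on smooth muscle and non-muscle myosin. It lies on chromosome 20 at 36541484 to 36551447, plus strand, within the antisense gene DLGAP4-AS1, which was at most 0.563 FPKM. MYL9 had 99.3 and 91.6 FPKM in PRDM16 libraries, against 120.4 and 116 FPKM in control vector libraries. The groups did not overlap, with a gap of 17.0 FPKM beside differences of 7.70 FPKM within PRDM16 and 4.11 FPKM within the control vector. The means were 95.5 ± 5.45 and 118 ± 2.91 FPKM (SD, n = 2 each), 1.24-fold lower with PRDM16. The log2 change was -0.31 (SE 0.09, 95% interval -0.55 to -0.07), with an unadjusted limma p of 0.0215 and an adjusted p of 0.689. It stood at place 319 by unadjusted p, and with any 1 library left out its change stayed between -0.37 and -0.25.

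Of the genes whose products bind actin filaments, TAGLN, an early smooth muscle marker, was low. It lies on chromosome 11 at 117199321 to 117204782, plus strand. TAGLN had 1.68 and 1.26 FPKM in PRDM16 libraries, against 1.82 and 2.17 FPKM in control vector libraries. The groups did not overlap, but the gap of 0.133 FPKM was smaller than the differences within groups, 0.427 FPKM in PRDM16 and 0.354 FPKM in the control vector. Its log2 change of -0.28 (SE 0.17, 95% interval -0.73 to 0.17) did not pass (limma adjusted p = 0.689). It was -0.16 without PRDM16 replicate 2 and -0.41 without PRDM16 replicate 1, and -0.42 with a pseudocount of 0.1. The last 446 bases of TAGLN overlap PCSK7 on the opposite strand, which stood well above it at 18.6 and 15.7 FPKM in PRDM16 libraries and 18.4 and 16.8 FPKM in control vector libraries.

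CNN1, a calponin found mainly in differentiated smooth muscle, was present at a very low level. It lies on chromosome 19 at 11538717 to 11550323, plus strand. CNN1 had 0.575 and 0.504 FPKM in PRDM16 libraries, against 0.390 and 0.306 FPKM in control vector libraries. The groups did not overlap, PRDM16 being the higher, and the means, 0.539 ± 0.050 and 0.348 ± 0.060 FPKM (SD, n = 2 each), differed 1.55-fold. Without the filter on low values its log2 change of 0.19 had an unadjusted limma p of 0.0554 and an adjusted p of 0.745.

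CALD1 encodes caldesmon, which binds actin and tropomyosin and holds back myosin, and lies on chromosome 7 at 134744252 to 134970728, plus strand. It had 217 and 184 FPKM in PRDM16 libraries, against 220.2 and 219.9 FPKM in control vector libraries. PRDM16 replicate 2 was the library apart, and PRDM16 replicate 1 lay only 2.86 FPKM under the control vector. The log2 change of -0.14 (SE 0.11, 95% interval -0.42 to 0.15, limma adjusted p = 0.699) was -0.02 without PRDM16 replicate 2 and -0.25 without PRDM16 replicate 1.

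TPM1 and TPM2 encode tropomyosins, coiled coils that run along the actin filament. TPM1 (chromosome 15, 63042632 to 63071915, plus strand) had 1069 and 1054 FPKM in PRDM16 libraries, against 1014 and 1076 FPKM in control vector libraries. The groups overlapped, and the log2 change of 0.02 had a 95% interval of -0.18 to 0.22 (limma adjusted p = 0.922). Leaving out control vector replicate 1 gave -0.02. TPM2 (chromosome 9, 35681992 to 35690121, minus strand) had 7.58 and 7.12 FPKM in PRDM16 libraries, against 6.81 and 12.6 FPKM in control vector libraries. Here control vector replicate 2 stood apart and the other 3 libraries lay close together. The log2 change of TPM2 was -0.31 (95% interval -1.05 to 0.44, limma adjusted p = 0.720). Leaving out control vector replicate 2 gave 0.10, and leaving out control vector replicate 1 gave -0.71. Tropomyosin transcripts share similar coding sequence, so a few reads may be split among their genes.

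ACTN1 encodes a crosslinker of actin filaments at stress fibres and adhesions, and its locus, with HMGN1P3 inside it, lies on chromosome 14 at 68874143 to 68979440, minus strand. It had 409.7 and 399 FPKM in PRDM16 libraries, against 414 and 404 FPKM in control vector libraries. The groups overlapped and the 4 values lay close together. The log2 change was -0.02 with a 95% interval of -0.22 to 0.18 (limma adjusted p = 0.946). Leaving out control vector replicate 1 gave 0.00201, and leaving out PRDM16 replicate 2 gave 0.00261.

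TNNT1 is the troponin T of slow skeletal muscle, where troponin makes contraction depend on calcium, and lies on chromosome 19 at 55132794 to 55149354, minus strand. It had 40.6 and 43.9 FPKM in PRDM16 libraries, against 45.6 and 57.8 FPKM in control vector libraries. The groups did not overlap, but the gap of 1.66 FPKM was smaller than the difference of 12.2 FPKM between the control vector libraries. The log2 change was -0.28 (SE 0.14, 95% interval -0.66 to 0.10, limma adjusted p = 0.689). Leaving out control vector replicate 2 gave -0.11, and leaving out control vector replicate 1 gave -0.44. The rest of the troponin complex was scarcely present. TNNI1, TNNI2, TNNC1 and TNNC2 were each under a mean of 1 FPKM. So were TNNT3 and TNNT2, of which TNNT2 was measured only in a locus with LAD1. TNNI3 was measured only in a locus with DNAAF3, at 1.56 and 1.03 FPKM in PRDM16 libraries, against 0.877 and 1.83 FPKM in control vector libraries. In these libraries TNNT1 therefore made up over 99% of troponin T FPKM, at 99.9% and 99.7% in PRDM16 and 99.5% and 99.7% in the control vector.

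**Figure D2:**
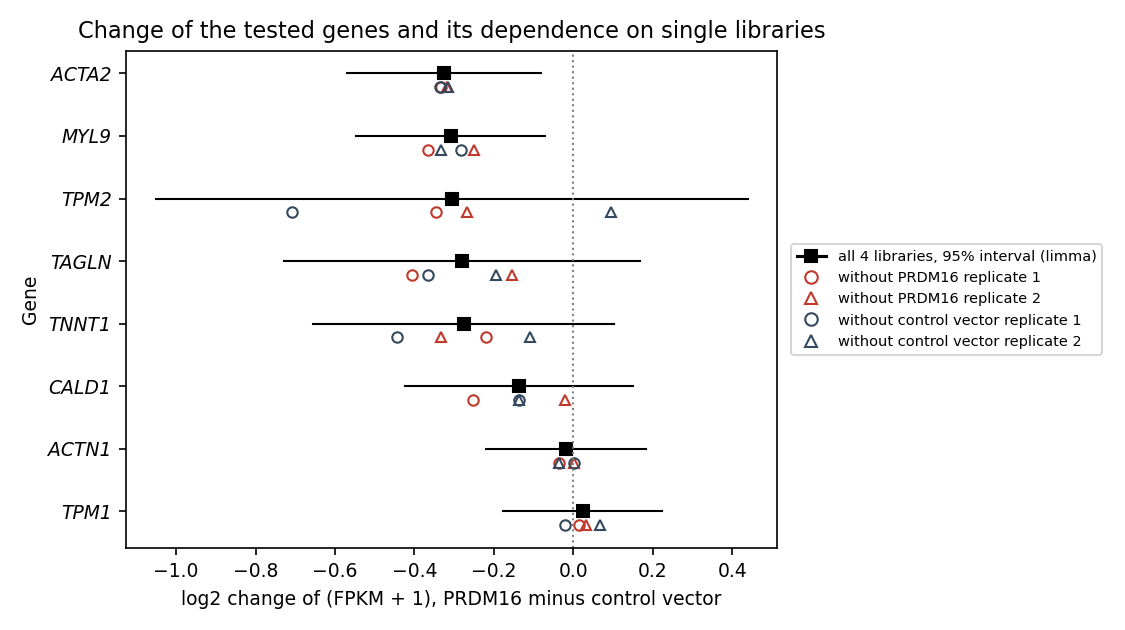
Log2 change of FPKM + 1 (PRDM16 minus control vector) for the 8 tested genes, with squares and lines for the limma estimate and 95% interval from all 4 libraries and open symbols for the estimate with 1 library left out. ACTA2 and MYL9 keep their place near -0.33 and -0.31, whereas the estimates of TPM2 lie between -0.71 and 0.10.

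PRDM16 replicate 2 was the lowest of the 4 libraries for 5 of the 9 genes, and control vector replicate 2 was the highest for 5. The matching shares of all tested loci were not computed, so these counts are not read as particular to the set. Without control vector replicate 2 the median change of the 8 tested genes was -0.12, and 6 of them were lower. ACTA2 and MYL9 were then at log2 changes of -0.32 and -0.33.

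Most of the 9 genes belong to families whose other members are expressed in nearly all cells. Of 18 paralogs 11 were tested and 0 were called by limma (0 at an unadjusted p under 0.05). All 11 had a higher mean with PRDM16 on the deposited scale (50.7% of all tested loci). The groups overlapped in each, with 0 of the 11 below (20.3% of all tested loci) and 0 above (21.1%). The median log2 change of the 11 was 0.08. With quantile normalization 6 were higher and 4 lower (median 0.03), and with median-of-ratios scaling 10 were higher and 1 lower. Control vector replicate 2 was the lowest library for 11 of the 11. Without it 0 of the 11 were higher and their median was -0.07, beside -0.0036 over all tested loci. For how many of all tested loci that library was lowest was not computed, so the count is not read as particular to the paralogs. The cytoplasmic actins ACTB and ACTG1 shared their loci with clone-named genes. ACTB was 3780 and 3974 FPKM in PRDM16 libraries, against 3927 and 3172 FPKM in control vector libraries, and ACTG1 was 4877 and 4808 FPKM against 4908 and 4203 FPKM. The light chain genes MYL12A, at 352 and 351 FPKM against 352 and 349 FPKM, and MYL12B, at 213 and 228 FPKM against 221 and 211 FPKM, differed little.

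The remaining paralogs followed the same pattern, with control vector replicate 2 below the other libraries. TAGLN2 was 468 and 478 FPKM in PRDM16 libraries, against 512 and 423 FPKM in control vector libraries, and TAGLN3 was 12.7 and 14.0 FPKM against 16.8 and 8.96 FPKM. The calponin genes CNN2 and CNN3 were 202 and 201 FPKM against 212 and 175 FPKM, and 324 and 313 FPKM against 344 and 255 FPKM. TPM3 was 271 and 262 FPKM in PRDM16 libraries and 278 and 185 FPKM in control vector libraries, and TPM4 was 299 and 299 FPKM against 316 and 273 FPKM. ACTN4, the other widely expressed alpha-actinin, was 639.7 and 617 FPKM against 686 and 515 FPKM.

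A share within a family is not altered by a single scaling factor per library, and it was computed after the values of the genes were seen. MYL9 made up 14.9% and 13.7% of the summed FPKM of MYL9, MYL12A and MYL12B in PRDM16 libraries, against 17.4% and 17.2% in control vector libraries. ACTA2 made up 0.0888% and 0.0865% of actin FPKM in PRDM16 libraries, against 0.110% and 0.134% in control vector libraries. Neither share overlapped between the groups. The actin sum was lowest in control vector replicate 2, at 7385 FPKM. It was 8845 FPKM in control vector replicate 1 and 8665 and 8790 FPKM in PRDM16 libraries. CNN1 did not overlap either, on the higher side, at 0.109% and 0.0978% of calponin FPKM in PRDM16 libraries, against 0.0701% and 0.0710% in control vector libraries. TPM1 made up 64.9% and 65.0% of tropomyosin FPKM, against 62.8% and 69.6%, and ACTN1 39.0% and 39.3% of alpha-actinin FPKM, against 37.7% and 43.9%. Both of these shares overlapped, with the control vector libraries on either side of the PRDM16 libraries. TPM2 overlapped as well, at 0.460% and 0.439% of tropomyosin FPKM in PRDM16 libraries, against 0.422% and 0.817% in control vector libraries. TAGLN also overlapped, at 0.349% and 0.255% of transgelin FPKM in PRDM16 libraries, against 0.342% and 0.5001% in control vector libraries. Among the other shares, those of TNNT1, MYL12A and MYL12B lay above both control vector libraries, and those of ACTA1 and ACTN2 below. Shares in a family add up to a fixed whole, so those of MYL12A and MYL12B are not independent of the MYL9 share. The TNNT1 share depends on TNNT2 and TNNT3, at most 0.217 FPKM in any library, and TNNT1 itself was lower with PRDM16. ACTA1 and ACTN2 had means of only 0.162 and 0.0874 FPKM over the 4 libraries. How often shares separate in families outside this set was not computed. With 2 libraries against 2, an exact two-sided permutation test cannot go below p = 0.333, so no test of the shares is given.

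**Figure D3:**
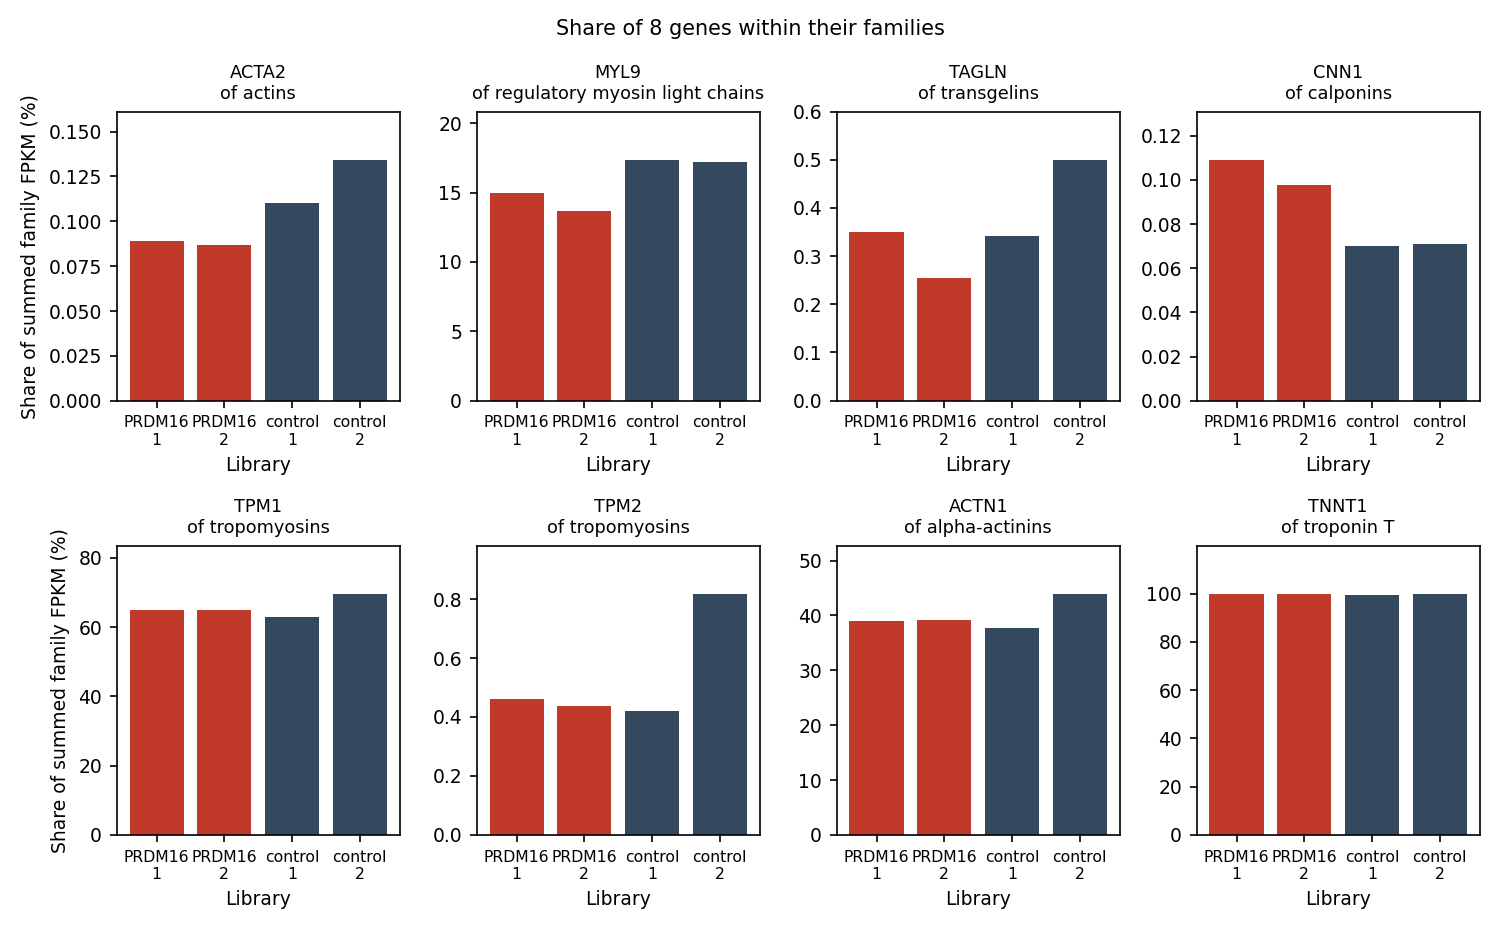
Share of the 8 genes with a family among the measured paralogs in the summed FPKM of that family (percent, axes from 0), with 1 bar per library, PRDM16 in red and control vector in dark blue. The PRDM16 bars are below both control vector bars for ACTA2 and MYL9, and above them for CNN1 and, narrowly, TNNT1. The TNNT1 bars depend on TNNT2 and TNNT3, which were at most 0.217 FPKM in any library. The PRDM16 bars lie between the control vector bars for TPM1, TPM2 and ACTN1, and the groups overlap for TAGLN.

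SRF and its cofactors stand upstream of these genes, and 0 of 6 tested were called by limma (0 at an unadjusted p under 0.05). SRF itself was 18.2 and 19.0 FPKM in PRDM16 libraries, against 19.1 and 16.3 FPKM in control vector libraries, with overlapping groups and a log2 change of 0.07 (95% interval -0.23 to 0.37). MRTFA, listed under its older symbol MKL1, was 28.4 and 22.6 FPKM against 33.9 and 28.8 FPKM, with a change of -0.29 in log2 (95% interval -0.70 to 0.11). MRTFB, measured in a locus that names MKL2 and the pseudogene TVP23CP2, was 16.8 and 15.5 FPKM against 18.4 and 20.0 FPKM, with a change of -0.24 in log2 (95% interval -0.50 to 0.03). Both MRTF genes lay lower in both PRDM16 libraries, and neither passed (limma adjusted p = 0.689 for each). The MRTFA gap of 0.42 FPKM was smaller than its SD, 4.09 FPKM in PRDM16 and 3.61 FPKM in the control vector. Of the 6 tested, both PRDM16 libraries lay below for 3 (20.3% of all tested loci) and above for 2 (21.1% of all tested loci). Of the ternary complex factors, ELK3 was 26.8 and 28.6 FPKM in PRDM16 libraries, against 24.1 and 18.8 FPKM in control vector libraries. ELK1 was also higher in both, at 29.1 and 29.2 FPKM against 27.0 and 26.8 FPKM, and ELK4 was lower in both, at 6.63 and 6.65 FPKM against 7.14 and 7.55 FPKM. MYOCD, the cofactor of smooth and cardiac muscle, was listed at 0 in all 4 libraries.

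Other targets of SRF and MRTF in the cytoskeleton and adhesions had differences of both signs. Of 17 tested, 0 were called by limma and 1 had an unadjusted p under 0.05, beside 6.12% of all tested loci. Means were lower for 11 (49.3% of all tested loci) and higher for 6 (50.7%). Both PRDM16 libraries lay below for 4 (20.3% of all tested loci) and above for 5 (21.1%), with a median log2 change of -0.05. CCN2 (CTGF), a matricellular protein gene that YAP also drives, was 31.0 and 28.5 FPKM in PRDM16 libraries, against 23.7 and 21.9 FPKM in control vector libraries. Its log2 change of 0.37 had an unadjusted limma p of 0.0158 and an adjusted p of 0.689. Smoothelin (SMTN), measured in a locus with a clone-named gene, was 52.3 and 57.9 FPKM against 50.6 and 30.4 FPKM. PDLIM7, an actin-associated scaffold gene, was 143 and 125 FPKM against 143 and 167 FPKM, lower in both PRDM16 libraries by a narrow margin.

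Immediate early targets of SRF and ternary complex factors were mostly low, and 6 of 9 were tested, of which 0 were called by limma (0 at an unadjusted p under 0.05). Both PRDM16 libraries lay above for 3 (21.1% of all tested loci) and below for 1 (20.3%), with a median log2 change of 0.05. EGR1, a zinc finger factor gene induced by serum, was 1.10 and 1.43 FPKM in PRDM16 libraries, against 1.69 and 2.90 FPKM in control vector libraries. FOSB, an AP-1 subunit gene, was 1.18 and 1.33 FPKM against 0.816 and 0.687 FPKM, and IER2 was 27.0 and 26.5 FPKM against 22.7 and 24.7 FPKM.

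**Figure D4:**
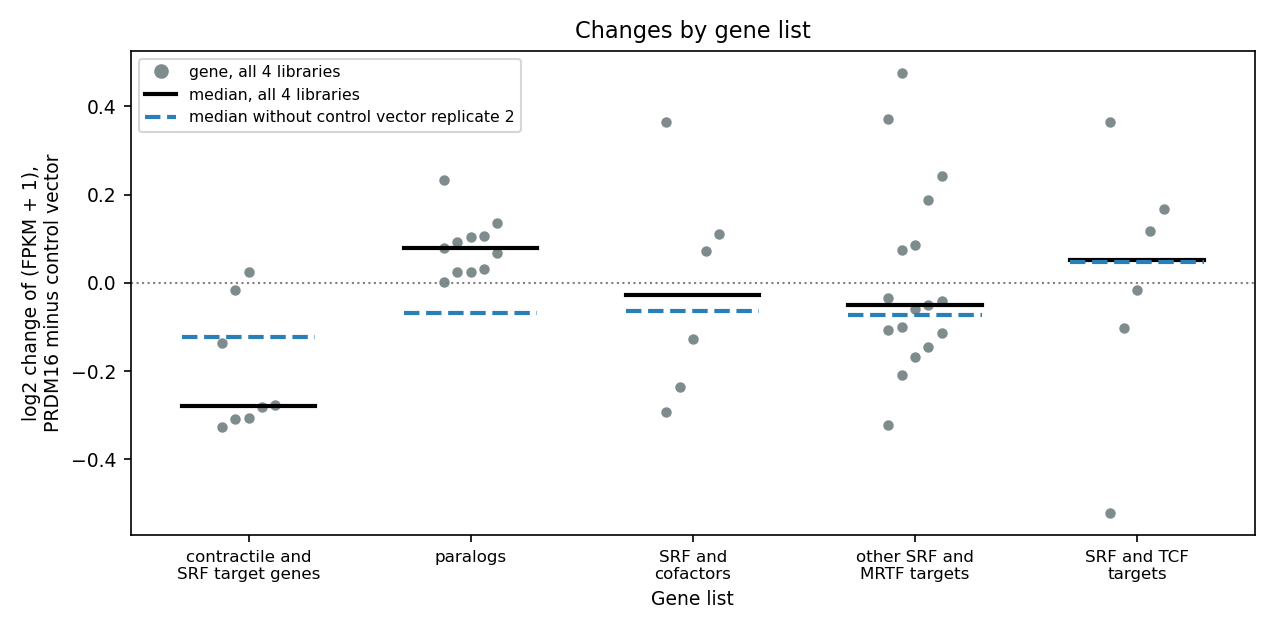
Log2 change of FPKM + 1 (PRDM16 minus control vector) of each tested gene (grey points) in 5 gene lists, with the list median from all 4 libraries (black line) and without control vector replicate 2 (blue dashed line). The median of the contractile and SRF target genes is -0.28 with all libraries and -0.12 without that library, and that of the paralogs is 0.08 with all libraries and -0.07 without it.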

How the data were processed

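Per the submitters' processing notes, reads were handled with Trim Galore, TopHat2 2.1.0, Cufflinks 2.2.1 and Cuffdiff on hg38. For the annotation, filters and strandedness, the sources used here give nothing. In the deposited table each locus has 1 value per library, taken as the authors' FPKM from those tools and from sums of 556213 to 574003 per library, since its header names no unit. Mitochondrially encoded loci are at 0 throughout, so a 0 may be a failed estimate. The values of single reads at low loci put relative depth at 1.25 and 1.16 (PRDM16 replicates 1 and 2) and 1 and 1.39 (control vector replicates 1 and 2). Absolute depth remains unknown, so counting intervals were not computed.

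Genes were matched by name, and coordinates come from GENCODE release 29 (GRCh38). The two-sided moderated test of limma 3.58.1 (R 4.3.3), with its variance trend, was run on log2(FPKM + 1) of 13246 loci with a mean of at least 1, without a replicate block, and p was adjusted by Benjamini-Hochberg. On simulated data the fit rarely recovered small changes and also made some false calls, so genes not called may still differ. Shares within families were added after the values were seen. Python 3.11.15, pandas 2.3.3, numpy 2.4.6 and matplotlib 3.10.9 were used for tables and plots. The genes and lists were chosen with earlier results of these data known. One list is not reported here. Values are given for the 9 genes, PRDM16, SRF and its cofactors, paralogs at 1 FPKM or more, and from each other list the 3 genes with the smallest p. Markers are described as lists, with values for some of those at 1 FPKM or more, and further genes under 1 FPKM are named only as low or listed at 0. The alternatives covered pseudocounts, filters, scaling, variance models, the replicate block and leaving out each library.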

Additional observations from a re-analysis of the deposited data

How the results depend on the processing

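No gene of the set and none of the listed pathway genes was called under any alternative run (counts of 0 throughout), and PRDM16 was called in each, with a log2 change of 9.85 to 12.56. The number of called loci was 3. Robust variances and a pseudocount of 0.1 each gave 5, leaving the trend out gave 6, dropping the filter gave 1, and leaving out 1 library gave 17 to 37. The labels give both groups replicates 1 and 2, but same-numbered libraries did not deviate together (correlation of deviations -0.06 across loci), and the fit with the replicate block called 5 loci. The median change of the genes of the set was -0.28, and -0.31 to -0.12 with 1 library left out, where -0.12 is without control vector replicate 2. Of 112 values of single genes of the set under alternatives, 0 passed the threshold. They include CNN1 without the filter, which had no test in the main run. Of the 112, 108 kept their direction and 4 changed sign. Those were TPM1 (-0.0199) and ACTN1 (0.00201) without control vector replicate 1, TPM2 (0.10) without control vector replicate 2 and ACTN1 (0.00261) without PRDM16 replicate 2, and the cause was not tested. With 1 library left out TPM1 lay between -0.0199 and 0.0668, TPM2 between -0.71 and 0.10, and ACTN1 between -0.0370 and 0.00261. After seeing the data, counts of direction without control vector replicate 2 were added, with 6 of the set lower in place of 7 and 0 paralogs higher in place of 11. Fits with 1 library left out take all their residual spread from the other group, and the lone library is assumed to vary like it, so their p-values and counts of calls carry that limit. Scalings moved the median change of all loci by less than 0.1. The count-based tool planned in case of counts was not run. The 2 libraries per group and the unknown absolute depth limit what can be detected.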
